A study of Mus musculus with 8 samples.

Results

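Expression of the hypoxia response and glycolysis genes was followed in mouse pancreatic buds. A list of 34 genes covered glucose transport, glycolytic enzymes, the hypoxia-inducible factors (HIF), the hydroxylases that control them, and further HIF target genes. A member was measured where a probe set of the array was annotated to its symbol alone, and genes with several such probe sets were read from the brightest, by its average on all 8 arrays. By that rule 31 of the 34 members were measured, among 19938 genes in all. Eno1 and Gpi1 had no probe set under their symbols in the annotation. Gapdh had 25 probe sets, each of which also named other genes, and was not used.

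The samples were 4 pools of RNA. The VEGF pool held freshly isolated e12.5 buds of 3 embryos with the genotype Pdx1-tTA; TET-VEGF, in which a transactivator under the Pdx1 promoter, active in the pancreatic epithelium, switches on a VEGF transgene. The control pool held buds of 3 littermates with Pdx1-tTA alone, so the transactivator was present in both. The other pools held wild type e12.5 buds explanted and cultured for 2 days, 5 of them with VEGFR2i, by its name an inhibitor of the VEGF receptor VEGFR2, and 5 with vehicle. Each pool was run on 2 arrays, of which the second is labelled a technical repeat. Each condition was therefore 1 pool without a biological replicate, no test of a condition was possible, and the spread between arrays measures hybridization only.

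Cells that lack oxygen stop hydroxylating the alpha subunits of HIF, which then escape degradation, pair with ARNT and bind the core sequence ACGTG or GCGTG near their target genes. The targets raise glucose uptake and glycolysis, divert pyruvate to lactate, buffer acid, and include the hydroxylases themselves. In the embryonic pancreas, oxygen arrives with the blood vessels that grow around and between the epithelial branches, and HIF activity is known to bear on endocrine differentiation.

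Promoter sequence is shown for 4 members chosen because their levels took different courses between fresh buds and explants. Car9 and Ddit4 were higher in the explants, Slc2a1 was lower, and Ldha differed little. Each line gives the 250 bases before the start site, 5′ to 3′, from RefSeq on GRCm38.p6, with each ACGTG, or CACGT where the motif lies on the other strand, in capitals.
Car9, chr4:43506776-43507025, plus strand: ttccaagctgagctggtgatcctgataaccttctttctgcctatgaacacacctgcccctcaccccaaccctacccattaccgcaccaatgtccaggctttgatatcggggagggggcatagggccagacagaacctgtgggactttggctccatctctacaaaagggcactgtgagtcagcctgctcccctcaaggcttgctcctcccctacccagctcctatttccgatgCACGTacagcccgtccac
Ddit4, chr10:59951771-59952020, minus strand: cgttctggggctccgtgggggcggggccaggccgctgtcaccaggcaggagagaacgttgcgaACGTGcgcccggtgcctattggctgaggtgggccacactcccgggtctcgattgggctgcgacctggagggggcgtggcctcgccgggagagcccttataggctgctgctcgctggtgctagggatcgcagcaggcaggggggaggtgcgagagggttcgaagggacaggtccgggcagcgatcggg
Slc2a1, chr4:119108495-119108744, plus strand: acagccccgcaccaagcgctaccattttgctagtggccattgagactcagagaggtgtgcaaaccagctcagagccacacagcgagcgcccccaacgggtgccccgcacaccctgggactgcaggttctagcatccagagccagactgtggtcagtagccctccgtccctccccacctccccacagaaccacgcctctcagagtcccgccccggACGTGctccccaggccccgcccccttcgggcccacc
Ldha, chr7:46845554-46845803, plus strand: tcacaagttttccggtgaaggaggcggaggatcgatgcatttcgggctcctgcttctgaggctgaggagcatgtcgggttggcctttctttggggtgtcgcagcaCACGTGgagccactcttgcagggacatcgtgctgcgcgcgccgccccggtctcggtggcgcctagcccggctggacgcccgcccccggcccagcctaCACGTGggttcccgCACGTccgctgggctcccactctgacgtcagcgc

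Of the 34 listed genes, 30 had a promoter entry, with 42 start sites. Bhlhe40, Epas1, Ndrg1 and Stc1 had no entry. ACGTG on either strand was present in 18 of the 42 member promoters (42.9%) and in 16.6% of all 32841 promoters of the same length. GCGTG on either strand was present in 54.8% of the member promoters and 28.2% of all. A CACGTG palindrome, which counts as ACGTG on both strands, was present in 4 member promoters (9.52%, against 6.02% of all). Ldha held 2 copies. Among the members that were higher in the explants, the promoters of Car9 and Ddit4 held ACGTG, while those of Aldoc, Stc2, Pfkp and Higd1a held GCGTG but no ACGTG. Among those that were lower, Slc2a1, Egln3, P4ha1 and Bnip3 held ACGTG. The motif was thus found on both sides, and a match describes the letters in this window only. The list includes known HIF targets, and the promoters of all genes were not matched to the members for base composition. The part of either in the higher shares was not tested. Overlapping start sites, as for Aldoa, count the same match more than once.

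The arrays of a pool lay close together for these genes. The median absolute difference between the 2 arrays of a pool was 0.05 (log2) for the VEGF and control buds, 0.09 for the explants labelled VEGFR2i and 0.04 for those labelled vehicle. The largest was 0.37, for Bnip3 in the pool labelled VEGFR2i. The size rule for calling a member higher or lower asked for a gap of 1.5-fold or more between pool means (0.58 in log2) and for arrays that did not overlap between the pools. No member differed by that size between arrays of 1 pool. Values are deposited log2 expression, and a difference is followed in brackets by its range over the 4 pairs of arrays. The fresh and cultured sets may have been normalized separately. Over all genes, the median difference of an explant pool from the bud pool set beside it was 0.17 in both comparisons. Differences across the sets are given with that shift taken off. The array medians over genes lay further apart, at 4.99 to 5.02 for buds and 5.39 to 5.47 for explants. Scaling to those medians was not tried across the sets. Markers of the bud's cell types were present, but 14 of 15 endothelial markers were higher in the pool labelled VEGFR2i than in the pool labelled vehicle, whereas blocking this receptor is known to reduce endothelial cells. The explant pools are therefore named by their labels throughout, and directions between them are those of the labelled pools, not of the inhibitor.

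In the fresh buds, added VEGF left nearly all of these genes within 1.5-fold of the control. The only member to pass the size rule was Ndrg1, which encodes a cytoplasmic protein induced by hypoxia and by differentiation. Ndrg1 was at 7.55 and 7.58 on the VEGF arrays and at 8.30 and 8.46 on the control arrays. Its level in the VEGF pool was the lowest of the 4 pools, since the explant arrays lay between 8.41 and 8.49. The difference was -0.82 [-0.92, -0.72], a 1.77-fold lower level. One lower member of 31 compares with 0.933% of all 19938 genes lower by the same rule and 0.552% higher. The median member difference was 0.05, against 0.00 for all genes. Pfkp (0.43) and Egln3 (0.35) were the members next in size.

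The glucose transporter Slc2a1 was at 9.54 on both VEGF arrays and at 9.29 and 9.34 on the control arrays, without overlap. Its difference of 0.23 [0.20, 0.25] was below the size rule. Pgk1, which makes ATP in lower glycolysis, differed by 0.21 [0.17, 0.25], and P4ha2, a subunit of collagen prolyl hydroxylase, by 0.21 [0.08, 0.34]. Differences were positive for 17 of the 31 members and negative for 14, and over all 19938 genes for 10282 and 9634. Both VEGF arrays lay above both control arrays for 16 of the 31 members, which is 51.6% against 23.7% of all genes. The 2 VEGF arrays lay below both control arrays for 7 members (22.6%, against 21.6% of all genes), namely Ndrg1, Aldoc, Car9, Ddit4, Pdk1, Pfkl and Kdm3a. The members were brighter than the average gene, with a median level of 7.13 against 5.23, and the part of brightness in how often arrays separate was not tested. Endothelial markers were higher in the same pool, 6 of 15 by the size rule with a median of 0.54. Epithelial markers were lower, 6 of 12, with a median of -0.61. The part of either in the members' differences was not tested, and in whole buds fewer cells of a type and less RNA per cell cannot be told apart.

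Other genes of glucose use, outside the 34, included larger differences in the fresh buds. Of 26 measured further genes of glycolysis and lactate, 2 were higher and 2 lower. The high-affinity glucose transporter Slc2a3 was at 8.11 and 8.09 in the VEGF pool against 7.42 on both control arrays, a difference of 0.68. Slc16a3, which exports lactate, was at 7.17 and 7.26 against 6.54 and 6.61, a difference of 0.64. The lower pair were Slc2a2 (-0.64), the glucose transporter of beta cells and their progenitors, and the hexokinase-like Hkdc1 (-0.61). Both transporters that were higher thus serve import or lactate export, and the lower pair contains a transporter of the pancreatic epithelium. None of 32 further HIF target genes met the size rule in either direction, and their median was 0.04. Neither did any of 11 measured regulators of the pathway (median 0.00) or of 37 genes of the TCA cycle and respiratory chain (median 0.01). No p-value exists for these counts, and the size rule by itself would count 1.48% of all genes here.

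**Figure D1:**
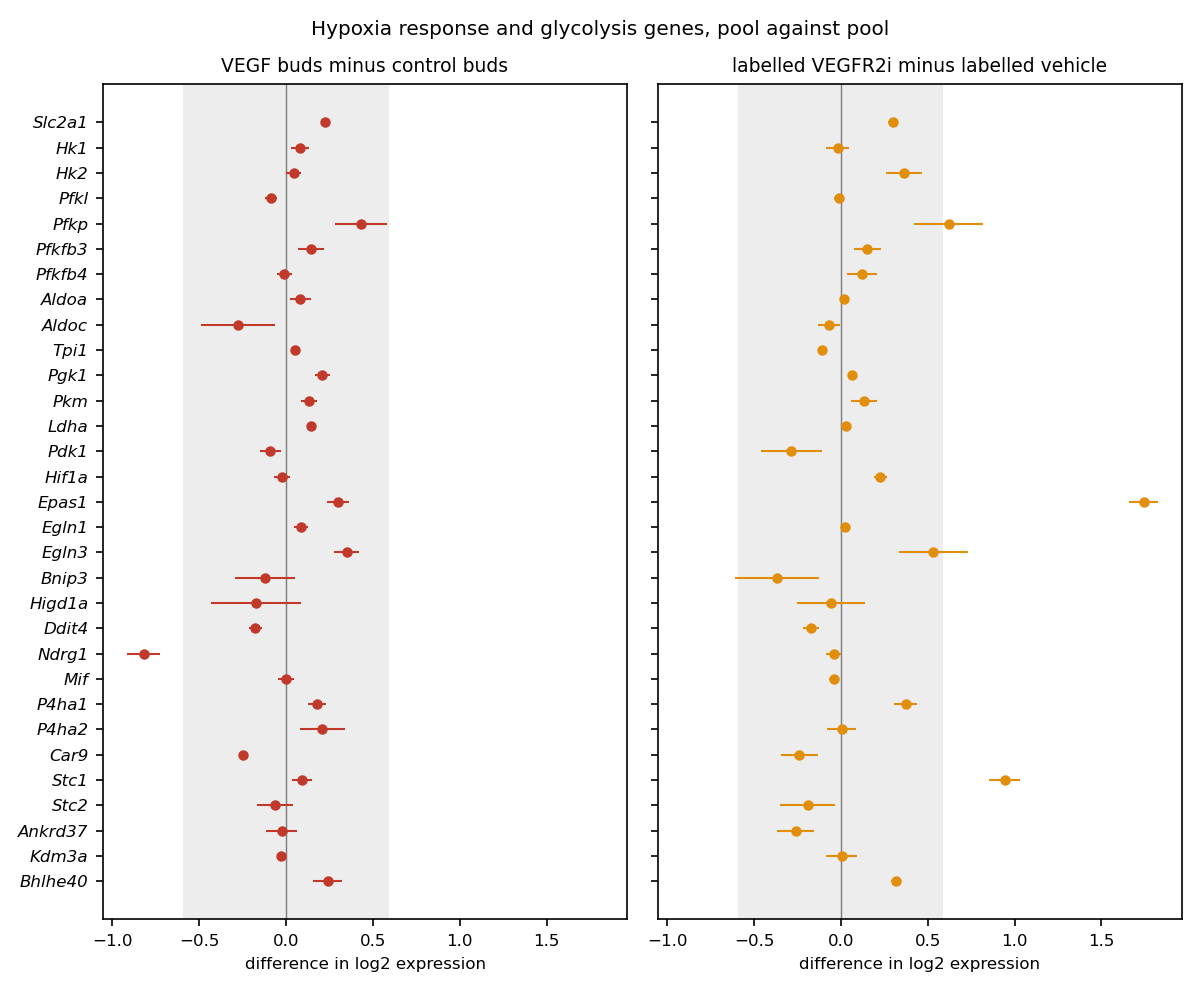
Difference in log2 expression between pool means for the 31 measured members, VEGF buds minus control buds on the left and explants labelled VEGFR2i minus explants labelled vehicle on the right. Points are differences of pool means, bars span the 4 pairs of arrays, and the grey band marks less than 1.5-fold. Ndrg1 lies left of the band on the left, and Epas1, Stc1 and Pfkp lie right of it on the right.

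Between the explant pools, 3 of the 31 members were higher in the pool labelled VEGFR2i and none was lower. The rule held for 2.19% of all genes, where 1.82% were higher and 0.371% lower. Epas1, which encodes the alpha subunit of HIF-2 and is abundant in endothelial cells, stood far from the others. It was at 7.18 and 7.19 on the arrays labelled VEGFR2i and at 5.52 and 5.36 on those labelled vehicle. The pools did not overlap, and the difference was 1.74 [1.66, 1.83], or 3.35-fold. The endothelial markers had a median difference of 2.10, and their mean level was 6.61 to 6.63 in the pool labelled VEGFR2i and 4.51 to 4.62 in the pool labelled vehicle. How much of the Epas1 difference goes with them was not tested. Hif1a, the other alpha subunit, was at 9.77 and 9.74 against 9.51 and 9.55, a difference of 0.23 [0.19, 0.26] that did not reach the size rule.

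Stc1, a secreted glycoprotein hormone induced by hypoxia, was at 5.20 and 5.29 on the arrays labelled VEGFR2i. It was at 4.35 and 4.26 on those labelled vehicle and between 3.85 and 3.99 in all fresh buds. The difference was 0.94 [0.85, 1.03], or 1.92-fold. Pfkp, the platelet type of phosphofructokinase, was at 6.07 and 5.95 against 5.25 and 5.53, a difference of 0.62 [0.42, 0.82]. Its place above the size rule was lost without the first array labelled VEGFR2i (0.56), without the first array labelled vehicle (0.48), and when each array was centred on its median (0.57). Egln3, the HIF prolyl hydroxylase that is itself a HIF target, lay just under the rule at 0.53 [0.33, 0.73], and passed it without the first array labelled VEGFR2i. Its arrays stood at 4.49 and 4.82 against 4.16 and 4.09, the latter below the median probe set of their arrays (4.33 and 4.32).

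The remaining members differed by less. P4ha1 (0.37), Hk2 (0.36), Bhlhe40 (0.32) and Slc2a1 (0.30) were the next highest in the pool labelled VEGFR2i. Bnip3, a mitophagy receptor, had the lowest difference with -0.37 [-0.61, -0.13], followed by Pdk1 (-0.28), the kinase that closes pyruvate dehydrogenase. Enzymes of lower glycolysis lay near 0, with Aldoa at 0.02, Pgk1 at 0.06, Pkm at 0.13 and Tpi1 at -0.11. The median member difference was 0.02 and that of all genes 0.00. With each array centred on its median, the member median became -0.04. Among the 32 further HIF targets, Igfbp3 (0.95), Nrn1 (0.75) and Hmox1 (0.63) were higher and none was lower. No gene of the 11 pathway regulators, the 26 further glycolysis genes or the 37 TCA and respiratory chain genes passed the rule. Leukocyte markers were also higher in that pool, 8 of 10 with a median of 0.97, as were 7 of 10 mural markers, with a median of 0.78. Their part in the members' differences was not tested.

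The fresh and cultured comparisons share no array, so their values can be set side by side. For 13 of 31 members (41.9%) both arrays of the VEGF pool lay above the control and both arrays labelled VEGFR2i above vehicle, compared with 9.87% of all genes. They were Slc2a1, Pgk1, Ldha, Aldoa, Egln1, Egln3, P4ha1, Pfkfb3, Pfkp, Bhlhe40, Stc1, Epas1 and Pkm. Between the explants, Aldoa (0.02), Egln1 (0.03), Ldha (0.03) and Pgk1 (0.06) had the smallest differences among them. Centring each array on its median lowered the explant member median from 0.02 to -0.04. The count was not repeated on that scale, where such small differences can change sign. The arrays of Aldoc, Pdk1, Car9 and Ddit4 lay below in both (12.9% of members, against 7.47% of all genes). The triose enzyme Tpi1 was the single member above in the first and below in the second, at 0.05 and -0.11 (4.23% of all genes), and no member was the other way round (4.65% of all genes). Endothelial markers were higher in the first pool of each comparison, and the part of vessel content in these directions was not tested.

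The largest differences of all separated the explants from the fresh buds. Relative to the control pool, 6 of 31 members were higher and 4 lower among the explants labelled vehicle, with 12.3% of all genes higher and 5.87% lower (18.2% in all). Relative to the VEGF pool, 9 members were higher and 3 lower among the explants labelled VEGFR2i, with 12.9% of all genes higher and 4.97% lower. In both comparisons 19.4% of members were higher, against 10.6% of all genes, and 6.45% were lower, against 4.07%. Of all genes, 17.9% met the rule between VEGFR2i and VEGF, so many genes outside the list differed too. The members higher in both were Car9, Aldoc, Ddit4, Stc2, Bhlhe40 and Pfkp, and those lower in both were Slc2a1 and Egln3. Genotype, time and culture differ together between these pools, and the comparison of VEGFR2i with VEGF also includes the VEGF transgene and the labelled inhibitor. These cannot be told apart.

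**Figure D2:**
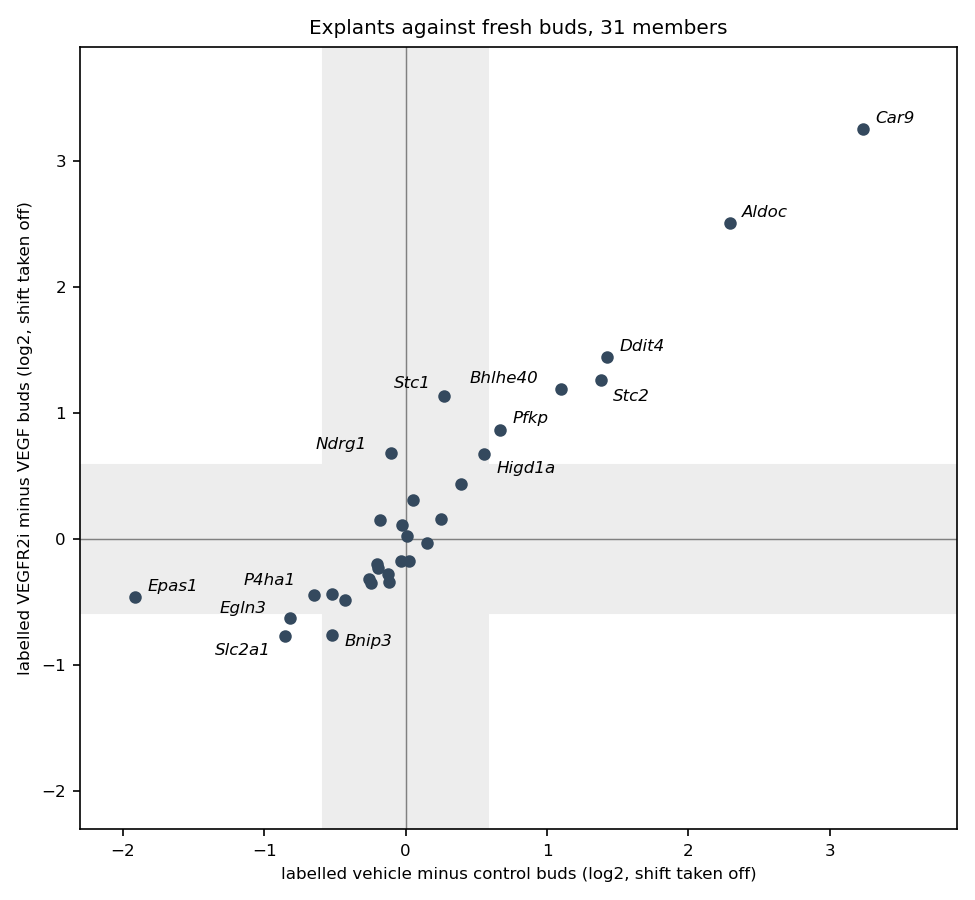
Difference in log2 expression of explants from fresh buds for the 31 members, with the pool labelled vehicle minus control buds on the horizontal axis and the pool labelled VEGFR2i minus VEGF buds on the vertical axis, each after the median shift of all genes was taken off. Each point is a gene, grey bands mark less than 1.5-fold, and the 14 members that met the size rule in any comparison are named; Car9 and Aldoc lie at the upper right and Slc2a1 and Egln3 at the lower left.

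Car9, a membrane carbonic anhydrase and a classical HIF-1 target, had the largest difference. It was at 3.63 on both VEGF arrays, at 3.87 and 3.88 on the control arrays, at 7.13 and 6.95 on the arrays labelled VEGFR2i and at 7.29 and 7.27 on those labelled vehicle. The differences were 3.23 [3.22, 3.25] for vehicle over control and 3.25 [3.15, 3.34] for VEGFR2i over VEGF, measured ratios of 9.40-fold and 9.49-fold. The bud arrays lay below the median probe set of their arrays (4.08 to 4.12), as did those of Bhlhe40, Stc1 and Stc2. The deposited values carry no detection call, so it is not known whether these bud signals were above background, and such ratios may understate the change. Its capitalised motif begins 18 bases before the start site. Aldoc, the brain type of aldolase, came second. Its arrays stood at 5.32 and 5.68 for VEGF, 5.74 and 5.81 for control, 8.14 and 8.20 for VEGFR2i and 8.27 and 8.20 for vehicle. The differences were 2.29 [2.22, 2.36] and 2.51 [2.30, 2.72]. Aldoa, the enzyme of the same step that most tissues use, lay between 10.59 and 10.78 on all 8 arrays.

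Ddit4, an inhibitor of mTORC1 that responds to hypoxia and to other stresses, was at 5.73 and 5.76 in the VEGF pool and 5.95 and 5.90 in the control pool. It stood at 7.33 and 7.37 in the pool labelled VEGFR2i and at 7.55 and 7.50 in the pool labelled vehicle. Its differences were 1.43 [1.38, 1.47] and 1.44 [1.41, 1.47], about 2.7-fold each. Stc2, a secreted relative of Stc1 that is also a target of the stress factor ATF4, lay between 3.85 and 4.02 on the 4 bud arrays. It lay between 5.26 and 5.61 on the 4 explant arrays, with differences of 1.38 and 1.26 [1.08, 1.44]. Bhlhe40, a transcriptional repressor of the circadian clock and a HIF target, was at 3.58 to 3.91 in buds. It was at 4.91 on both arrays labelled vehicle and 5.25 and 5.20 on those labelled VEGFR2i. Its differences were 1.10 and 1.18. None of these explant arrays overlapped the buds.

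Pfkp was higher in both explant pools, by 0.67 [0.40, 0.94] and 0.87 [0.78, 0.95], from 4.42 and 4.68 on the control arrays and 5.01 and 4.96 on the VEGF arrays. The first of these fell under the size rule without control array 1 (0.54) or without vehicle array 2 (0.52). It also did after quantile normalization of all arrays (0.57) and with genes at a level of at least 5 (0.54). Stc1 was higher in the pool labelled VEGFR2i than in the VEGF pool (1.13 [1.04, 1.22]) and differed by 0.27 between vehicle and control. Ndrg1 was higher in the pool labelled VEGFR2i than in the VEGF pool (0.68 [0.66, 0.71]), where its fresh level was low, and differed by -0.10 between vehicle and control. Quantile normalization took that Ndrg1 value to 0.54, and genes at a level of at least 5 took it to 0.52, both under the rule. Higd1a, a mitochondrial protein that adjusts respiration under low oxygen, met the rule in the VEGFR2i and VEGF pools alone (0.67 [0.46, 0.89]). It did not without VEGF array 2 (0.57), without VEGFR2i array 1 (0.54) or as the mean of its 2 probe sets (0.31). Nor did it after quantile normalization (0.56) or with genes at a level of at least 5 (0.51).

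Slc2a1 went the other way. It was at 9.54 on both VEGF arrays, 9.29 and 9.34 on the control arrays, 8.96 and 8.91 on the arrays labelled VEGFR2i, and 8.64 and 8.63 on those labelled vehicle, with no overlap between any of the pools. The differences from the fresh buds were -0.85 [-0.88, -0.82] for vehicle and -0.77 [-0.79, -0.75] for VEGFR2i, so the main HIF-responsive glucose transporter was 1.80-fold and 1.70-fold lower while Car9 was higher. Egln3 was at 5.12 and 5.11 in the VEGF pool and 4.83 and 4.70 in the control pool, and was lower in the explants by differences of -0.82 [-0.92, -0.71] and -0.62 [-0.79, -0.46]. The second of these was -0.46 on the deposited values and -0.47 without VEGFR2i array 1, both short of the rule. The first rests on Egln3 values below the median probe set of the arrays labelled vehicle. P4ha1, the main catalytic subunit of collagen prolyl hydroxylase, was at 7.83 and 7.74 in the control pool and 7.30 and 7.32 in the pool labelled vehicle. Its difference was -0.65 [-0.71, -0.59] there, or -0.47 on the deposited values, and -0.44 in the VEGFR2i and VEGF pools. Bnip3, a mitophagy receptor among the best known HIF targets, was lower in the pool labelled VEGFR2i than in the VEGF pool by a difference of -0.76 [-1.06, -0.47]. That call was lost without VEGFR2i array 2, where the value came just under the rule, and as the mean of both probe sets (-0.56). It differed by -0.52 between vehicle and control.

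Epas1 was lower in the pool labelled vehicle than in the control, at 5.52 and 5.36 against 7.23 and 7.14, a difference of -1.91 [-2.04, -1.78]. In the pool labelled VEGFR2i it was at 7.18 and 7.19, and its difference from the VEGF pool with the shift taken off was -0.46. All 15 endothelial markers were lower in the pool labelled vehicle than in the control, with a median of -2.89, and 14 of 15 in the pool labelled VEGFR2i than in the VEGF pool, with a median of -1.21. The part of the endothelial markers in the Epas1 values was not tested. Hif1a differed by 0.05 and 0.31 and Egln1, the main oxygen-sensing hydroxylase, by -0.43 and -0.48.

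**Figure D3:**
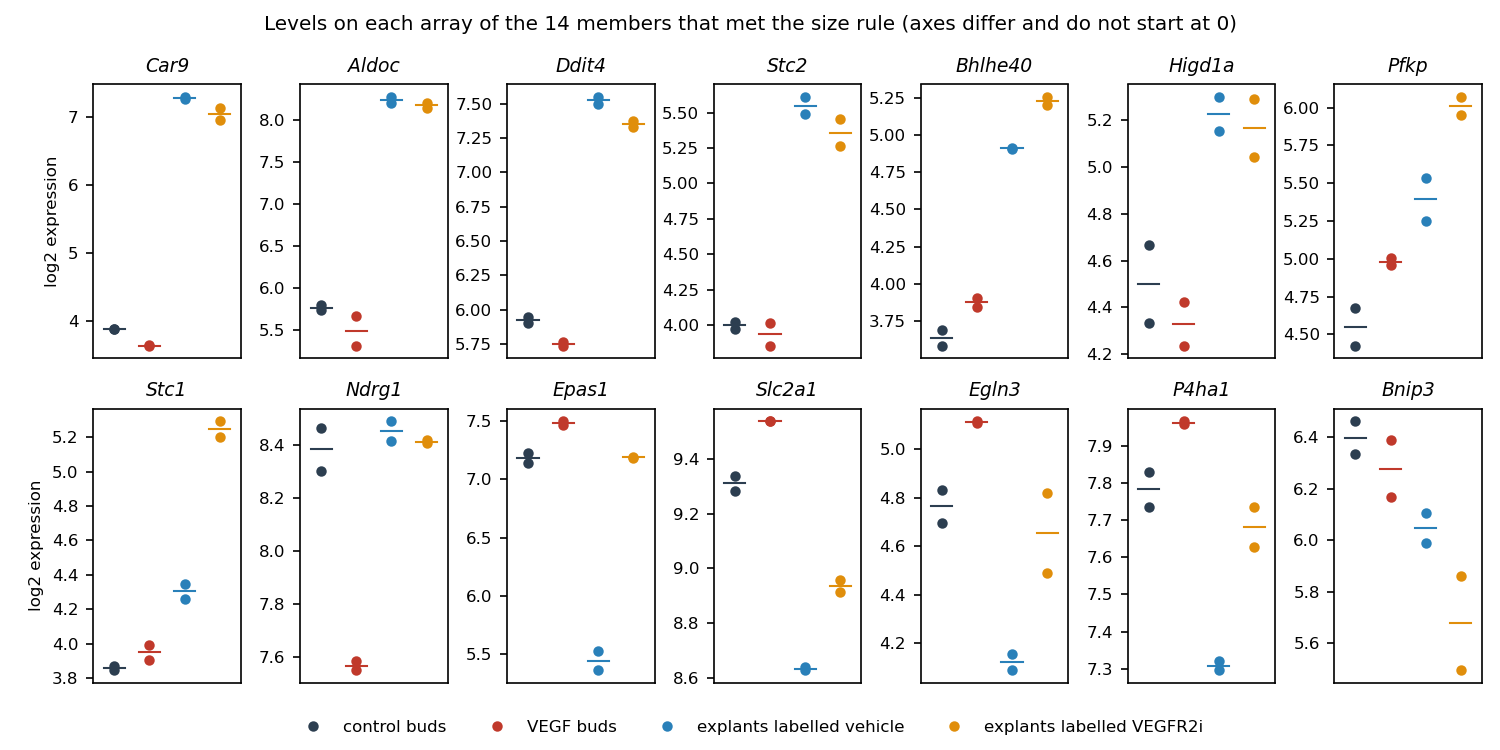
Log2 expression on each array for the 14 members that met the size rule in at least 1 comparison, with points for arrays, short lines for pool means, and colours for the 4 pools. Each panel has its own axis, so levels are not compared between genes. Car9, Aldoc, Ddit4, Stc2, Bhlhe40, Pfkp, Higd1a and Stc1 are higher on all explant arrays, and Slc2a1 and Bnip3 are lower on all of them.

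The other 17 members met the rule in none of the 4 comparisons, which for Hk1 holds only for its brightest probe set. They included most glycolytic enzymes, Aldoa, Tpi1, Pgk1, Pkm, Ldha, Pfkl and Hk2, as well as Pfkfb3 and Pfkfb4, which set the level of the phosphofructokinase activator. Their differences ran from -0.09 to 0.21 for VEGF over control, from -0.28 to 0.36 for VEGFR2i over vehicle, from -0.52 (Pfkl) to 0.39 (Kdm3a) for vehicle over control and from -0.48 (Egln1) to 0.44 (Kdm3a) for VEGFR2i over VEGF. Ldha makes lactate from pyruvate. It has 5 ACGTG matches in the promoter printed above, counting each palindrome on both strands, and none at its second start site. It was at 10.86 on both VEGF arrays and 10.70 and 10.73 on the control arrays. It lay between 10.63 and 10.69 on the explant arrays. Its differences from the fresh buds were -0.24 and -0.35, below 1.5-fold. Pdk1 differed by 0.15 and -0.04, and Ankrd37, a small ankyrin protein induced by HIF, by -0.12 and -0.34, at a dim level of 3.71 to 4.07. The cytokine Mif differed by -0.19 and -0.23. The median member difference was -0.03 for vehicle over control and -0.04 for VEGFR2i over VEGF, and its sign depended on the scaling, being 0.14 and 0.13 on the deposited values and -0.16 and -0.21 after quantile normalization. The split of 6 higher and 4 lower became 5 and 6 with quantile normalization, and that of 9 and 3 became 7 and 6. The shares of all genes on that scale were not counted.

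Hk1, the housekeeping hexokinase, is uncertain. The probe set with the highest mean lay at 11.63 to 12.14 on all arrays and differed by 0.25 and 0.16 between explants and buds. A further 16 probe sets are annotated to Hk1 together with Rpl17, a ribosomal protein gene; they lay between 10.13 and 12.45, and their differences for vehicle over control ran from 0.05 to 0.38. The other probe set annotated to Hk1 alone behaved differently, at 6.47 and 6.34 for VEGF, 6.24 and 6.15 for control, 5.98 and 5.99 for VEGFR2i and 5.31 and 5.35 for vehicle. By that probe set Hk1 differed by 0.21 in the fresh buds and 0.65 in the explants. It was lower in the explants than in the buds, by -1.04 and -0.59. By that probe set, all of these differences but the one in the fresh buds passed the size rule. Probe sets also disagreed for Higd1a, whose second one differed by -0.17 between vehicle and control where the first differed by 0.55. For Bnip3 both were negative there, at -0.52 and -0.73, but for VEGFR2i over vehicle the second was at 0.03 where the first was at -0.37, and for VEGFR2i over VEGF it was at -0.35 where the first was at -0.76.

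Other genes of glucose and oxygen use are given against the shares of all genes, 12.3% higher and 5.87% lower in vehicle over control and 12.9% and 4.97% in VEGFR2i over VEGF. Of 32 further HIF targets, 9 were higher and 4 lower in vehicle over control, and 9 and 2 in VEGFR2i over VEGF. The iron importer Tfrc (1.62 in both) and the glycogen branching enzyme Gbe1 (1.23 and 0.98) were among those higher, and the adenylate kinase Ak4 (-1.34 and -1.18) among those lower. Vegfa itself differed by 0.54 and 0.23, under the rule. Of 26 further glycolysis and lactate genes, 7 were higher and 4 lower, and then 6 and 4. Slc2a3 (-1.71 and -1.87), Slc16a3 (-0.71 and -1.19) and Ldhb (-1.08 and -0.91) were lower, and Hkdc1 was higher (1.99 for VEGFR2i over VEGF). Of the HIF pathway regulators, the inhibitory subunit Hif3a was lower (-1.15 and -1.09) and the ubiquitin ligase Siah2 higher (1.01 and 0.77). Of 37 TCA and respiratory chain genes, 3 were higher and none lower in either comparison (Cox6a1, Pdhb and Ndufv1). By the size rule these were smaller shares than over all genes. With the shift taken off, differences of any size were positive for 32 of the 37 in each comparison, with medians of 0.18 and 0.16. Over all genes, 9969 of 19938 were positive in each, with a median of 0. Among 13 genes of the pentose phosphate pathway and gluconeogenesis, 3 were higher in each, with Fbp1, the gluconeogenic fructose bisphosphatase, at 2.35 and 2.46.

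Genes of the integrated stress response, which slows translation and raises amino acid supply through ATF4, moved as a block. Of 18 measured, 17 were higher in vehicle over control and 16 in VEGFR2i over VEGF, and none was lower, with medians of 1.08 and 0.96. Nupr1, a stress-induced chromatin protein, was at 9.46 and 9.42 in the pool labelled vehicle against 4.28 and 4.32 in the control, a difference of 4.96, and the amino acid enzymes Psat1 (2.21) and Asns (2.18) followed. In the fresh buds none of the 18 met the rule, and between the explants Nupr1 alone did (-0.63). Ddit4 and Stc2, which were higher in the same explants, are known targets of ATF4 as well as of HIF. Of 10 glucocorticoid-responsive genes, 4 were higher in each comparison, led by the metallothioneins Mt2 (2.53) and Mt1 (2.50), and 2 and then none were lower. The part of either response in the members' differences was not tested.

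**Figure D4:**
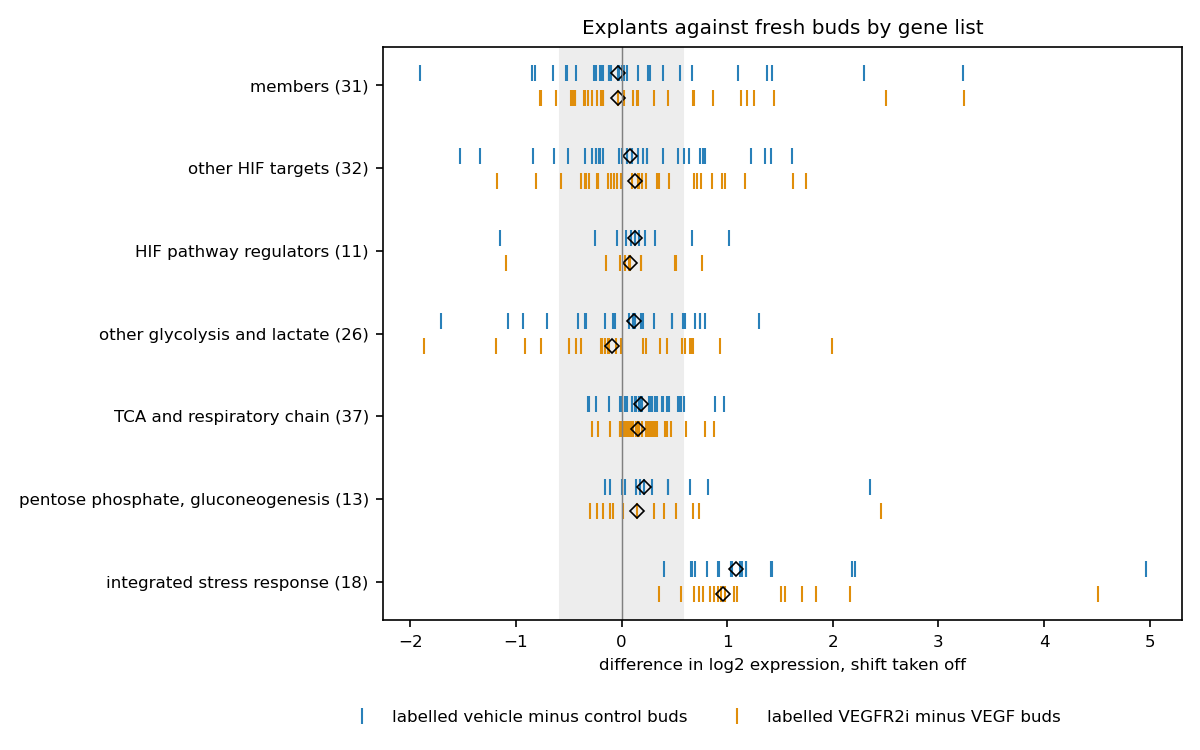
Difference in log2 expression of explants from fresh buds by gene list, with the number of measured genes in brackets, after the median shift of all genes was taken off. Ticks are genes, open diamonds are list medians, blue is the pool labelled vehicle minus control buds, orange is the pool labelled VEGFR2i minus VEGF buds, and the grey band marks less than 1.5-fold; the stress response medians lie at 1.08 and 0.96 and the member medians near 0.

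An order of the 4 pools ran through part of the list. With the shift taken off, the pool means of 8 members fell in the order VEGF, control, VEGFR2i, vehicle, namely Slc2a1, Ldha, Aldoa, Egln1, Egln3, P4ha1, Epas1 and Pkm (25.8%, against 12.6% of all genes). The same order was seen for 14 of 15 endothelial markers, 6 of 9 erythroid markers and 10 of the 26 further glycolysis and lactate genes, and for none of 12 epithelial or 9 acinar markers. On the deposited values it held for 6 members (19.4%, against 6.24%), without Epas1 and Pkm. The opposite order, shared by 10 of 12 epithelial and 6 of 9 acinar markers, was seen for Aldoc, Car9, Ddit4, Higd1a and Stc2 (16.1%, against 14.4% of all genes), a share near the background. Both orders were looked for after the values were seen. Which cells held the transcripts was not measured in these pools, and the part of cell content in the order was not tested.

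The marker lists moved as follows across the sets. Erythroid markers were lower in both explant pools, 7 of 9 in vehicle over control (median -2.77) and 9 of 9 in VEGFR2i over VEGF (median -2.65), and in the fresh buds 6 of 9 were higher with VEGF (median 1.01). In vehicle over control 6 of 10 leukocyte markers were lower and none higher, and 6 of 10 mural markers were lower and 3 higher. In VEGFR2i over VEGF 2 leukocyte markers were higher and 2 lower, and 3 mural markers were higher and 3 lower. Acinar markers were higher for 8 of 9 in both (medians 4.54 and 4.11), epithelial markers for 10 and 12 of 12, and endocrine markers for 10 and 11 of 12. In the fresh buds 9 of 12 endocrine and 3 of 9 acinar markers were lower with VEGF, and between the explants 5 of 9 acinar markers were lower in the pool labelled VEGFR2i. Mesothelial markers were higher with VEGF for 5 of 9. Mesenchymal and liver markers included higher and lower genes in both comparisons across the sets, and neural markers were higher for 4 and lower for 1 of 7 in the first and higher for 6 in the second. The part of these lists in the members' values was not tested.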

How the data were processed

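The 4 RNA pools were each run on 2 Affymetrix gene ST 1.0 arrays (8 in all). The authors deposited log2 values for each probe set after RMA, for which the design text names version 6.5 of Partek Genomic Suite; that unit follows from the range of the values. RMA compresses differences of dim genes and removes those common to most genes. The sources used here do not say whether buds and explants went through RMA together. Of 35399 probe sets, 21789 were annotated to 1 symbol and gave 19938 genes, 999 of them from the brightest of several probe sets; all 31 measured members matched RefSeq by gene ID. Pool means were compared by size (1.5-fold, arrays apart) in Python 3.11.15 with pandas 2.3.3 and scipy 1.17.1; across the sets the median difference of all genes was subtracted. The same code was tested on simulated data. Precision is limited by 2 arrays per pool, and depth does not apply to arrays. Alternatives were scaling, probe set, dim filter, fold, the methods' t-test and leaving out each array. Groups came from the labels. Members and gene lists were chosen with earlier results of these data known. Named genes were all members, those past the size rule with every array, the members nearest the threshold, and up to 4 genes per list and comparison; a few genes named from the lists beyond these were picked after their values were seen.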

Additional observations from a re-analysis of the deposited data

Results flagged for a closer look

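Hk2, the inducible hexokinase, differed in opposite directions in the 2 comparisons of explants with fresh buds. With the shift taken off, it was lower in the pool labelled vehicle than in the control pool on every pair of arrays, with a difference of -0.18, and higher in the pool labelled VEGFR2i than in the VEGF pool, with a difference of 0.15. Both are below the size rule. On the deposited values the differences were -0.01, with overlapping arrays, and 0.31. The difference between them was not tested, since each condition is 1 pool.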

How the results depend on the processing

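Under the other scalings, probe sets, dim filter and left-out arrays, the members called gave 206 single results. Of these, 187 stayed past the size rule and 19 fell under it. None changed direction, which says little where an array was left out. The rule already asked for arrays apart, so leaving out an array could hardly reverse a difference. Under a 2-fold rule the members called numbered 0 for VEGF over control (1 at 1.5-fold), 1 for VEGFR2i over vehicle (3), 6 for vehicle over control (10) and 6 for VEGFR2i over VEGF (12). A 1.3-fold rule gave 2 for VEGF over control. The methods' t-test over the arrays of the same pools, which measures hybridization error only, gave 1, 2, 10 and 10 members without adjustment and 0, 0, 9 and 9 after Benjamini-Hochberg adjustment. The shares of all genes under the 2-fold rule, the 1.3-fold rule, the t-test and the other alternatives of this section were not counted. These counts therefore do not set the members apart from other genes. The median member difference of vehicle over control (-0.03) became 0.14 on the deposited values, -0.16 with quantile normalization, -0.10 with the mean of all probe sets, -0.17 with genes at a level of at least 5 and -0.10 with the other Hk1 probe set, an alternative chosen after seeing the data. That of VEGFR2i over VEGF (-0.04) became 0.13, -0.21, -0.13, -0.17 and -0.17 in the same order. Leaving out each array in turn gave 1 to 1 members for VEGF over control, 2 to 3, 10 to 11 and 10 to 12 for the others. No paired analysis was possible because the labels give a technical repeat of each pool and no replicate numbers that pair pools. Signal near the low end of the scale limits the bud values of Car9, Bhlhe40, Stc1 and Stc2, which lie below the median probe set of their arrays, as well as Ankrd37. The same limit applies to Egln3 on the arrays labelled vehicle (4.16 and 4.09, below medians of 4.33 and 4.32). It also applies to Stc1 on vehicle array 2 (4.26). Requiring a level of at least 5, which also changed the shift taken off, removed Bhlhe40, Egln3 and Pfkp from vehicle over control. It added Bnip3 and Pfkl there, which gave 4 higher and 5 lower. In VEGFR2i over VEGF it removed Ndrg1 and Higd1a and added Egln1, P4ha1, Pfkl and Epas1. That gave 7 higher and 7 lower. The shares of all genes with this filter were not counted.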
